A study of Homo sapiens with 6 samples.

Results

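The 10 genes described here carry prostaglandin synthesis, sensing and breakdown: the phospholipase PLA2G4A, the cyclooxygenases PTGS1 and PTGS2, the prostaglandin E synthases PTGES, PTGES2 and PTGES3, the prostacyclin synthase PTGIS, the receptors PTGER2 and PTGER4, and the inactivating enzyme HPGD. They were chosen by symbol, for the known link of the pathway to frankincense resin acids and to endometriosis. Earlier results of these data were known when they were chosen. They are 10 of 60616 gene identifiers in the data. All 10 symbols matched 1 identifier each. RNA was sequenced from 12Z, an immortalized line derived from human endometriotic tissue, labelled wild type and grown with 10% charcoal-stripped serum, so every library comes from 1 cell line. The frankincense group (3 libraries) received a resin extract at 70 ug/mL in DMSO for 12 h, and the vehicle group (3 libraries) received DMSO for a time the labels do not give separately. Each library was made from 1.5 ug of total RNA. Separate cultures are not stated for the replicates, and the p-values below rest on a spread among libraries that may be technical.

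Prostaglandins are made from arachidonic acid, which cytosolic phospholipase A2-alpha (PLA2G4A) cuts from membrane phospholipids. Cyclooxygenases turn it into prostaglandin H2, and terminal synthases convert that into prostaglandin E2, prostacyclin and related lipids. Prostaglandin E2 raises cAMP through its EP2 and EP4 receptors (PTGER2 and PTGER4), and 15-hydroxyprostaglandin dehydrogenase (HPGD) inactivates it. In endometriosis prostaglandin E2 is known for its part in pain and inflammation and as a stimulus of local oestrogen synthesis in stromal cells. Boswellic acids, triterpenes of frankincense resin, are known as inhibitors of 5-lipoxygenase, the enzyme that starts the leukotriene branch.

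The libraries held 22615150 to 27615196 expected counts, and 3 counts in a library corresponded to 0.109 to 0.133 CPM, which is counts divided by the library total and scaled; this limit holds for counting error alone. A low-count filter kept 16719 genes for the test. Frankincense replicate 3 stood apart from the other treated libraries on the second principal component (27.6 against -7.99 and -19.95), which held 7.99% of the variance. Of the epithelial markers, KRT8 and KRT18 were high (771 and 661 TPM in vehicle; TPM is a level corrected for transcript length and library total) while CDH1, E-cadherin, lay at 0.133 TPM. The mesenchymal marker VIM was at 2050 TPM, and all 4 endothelial markers were below 0.3 TPM in every library. The 6 leukocyte markers summed to 30.4 to 33.9 TPM in vehicle and 35.2 to 63.95 in frankincense libraries, most of it CD68, with CD3E and TPSAB1 at 0 throughout. CD68 alone rose in mean, from 29.2 to 46.2 TPM (edgeR adjusted p = 0.0794), and was highest in frankincense replicate 3 (63.6). CD14 fell from 2.53 to 0.413 TPM (edgeR adjusted p = 3.9e-07), and PTPRC and CD79A also had lower means in frankincense libraries. The 6 stromal markers summed to 3761 to 3840 TPM in vehicle and 2769 to 2964 in frankincense libraries. Of these, CDH2 alone had a higher mean after frankincense (57.3 TPM in vehicle and 84.3 in frankincense libraries). Among epithelial markers, KRT8, KRT18 and KRT19 fell on counts (log2 change of -0.42, -0.42 and -0.58) and KRT7 and EPCAM rose (0.94 and 0.72). The smooth muscle markers ACTA2, MYH11, DES and CNN1 also fell on counts, each at an edgeR adjusted p under 0.05. In TPM, ACTA2 was at 37.2 in vehicle and 37.3 in frankincense libraries. The part of these shifts in the results below was not tested.

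The sequences below are the windows from 250 to 23 bases before the RefSeq start (GRCh38.p14, 5′ to 3′ on the gene's own strand) of the 2 members that rose and of 2 that fell, shown because they set the inducible PTGS2 start beside those of the phospholipase and the 2 synthases that moved in opposite directions. Capitals mark matches, on either strand, to any of 9 motifs searched. The core promoter motifs were the TATA box, written TATAAA, the CCAAT box with those letters, and the GC box, written GGGCGG. The response elements were the core of the cAMP response element, written CGTCA, the C/EBP motif, written TTNCGCAA, and the NF-kappaB motif, which is GGGA and CC with any 4 bases between. The antioxidant response element was written TGACNNNGC, the C/EBP-ATF response element TGATGNAA, and the E box was searched with the letters CACGTG.
PTGS2, chr1:186680446-186680673, minus strand: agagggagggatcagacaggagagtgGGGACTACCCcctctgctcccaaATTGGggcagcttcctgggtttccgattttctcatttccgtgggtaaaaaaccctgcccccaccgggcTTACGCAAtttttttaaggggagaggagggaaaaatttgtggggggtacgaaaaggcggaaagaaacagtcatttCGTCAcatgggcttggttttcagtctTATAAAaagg
PLA2G4A, chr1:186828699-186828926, plus strand: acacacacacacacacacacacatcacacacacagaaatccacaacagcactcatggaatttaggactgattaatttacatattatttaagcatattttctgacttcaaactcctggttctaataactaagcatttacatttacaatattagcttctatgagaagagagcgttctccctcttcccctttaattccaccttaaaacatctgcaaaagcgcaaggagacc
PTGES, chr9:129753065-129753292, minus strand: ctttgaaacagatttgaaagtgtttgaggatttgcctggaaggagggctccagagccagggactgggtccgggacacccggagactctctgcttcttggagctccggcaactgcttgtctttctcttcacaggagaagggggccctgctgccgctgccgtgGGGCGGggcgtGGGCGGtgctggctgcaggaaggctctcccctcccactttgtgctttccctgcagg
PTGES2, chr9:128128463-128128690, minus strand: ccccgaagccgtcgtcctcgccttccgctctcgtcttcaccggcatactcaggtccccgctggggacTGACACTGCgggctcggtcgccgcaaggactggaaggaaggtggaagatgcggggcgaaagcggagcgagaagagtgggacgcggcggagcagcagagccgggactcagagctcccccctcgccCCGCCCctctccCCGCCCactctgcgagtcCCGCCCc

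The PTGS2 window held 5 different motifs: an NF-kappaB match at -224 to -215 (GGGACTACCC), CCAAT on the other strand at -201 to -197, a C/EBP match at -133 to -126 (TTACGCAA), CGTCA at -58 to -54 and TATAAA at -32 to -27. Of 35116 windows of the same length in the RefSeq table, 20.5% held the NF-kappaB motif, 30.5% CCAAT, 0.664% the C/EBP motif, 19.3% CGTCA and 10.3% TATAAA. The PTGES2 window held 3 GC boxes on the other strand, a motif found in 39.8% of windows, and 1 antioxidant response element match at -183 to -175 (TGACACTGC), found in 9.86%. Its GC content was 70.6%, against a median of 57.5% over all windows. PTGES held 2 GC boxes at 61.4% GC. PLA2G4A held 0 matches at 37.3% GC, and 32.9% of all windows lay under 50% GC. The E box (5.7% of windows) and the C/EBP-ATF element (2.89%) were found in 0 of these windows. Across the 9 members in the table, GC content ranged from 37.3% to 75.9%, with PTGER2 and PTGER4 at 73.2% and 75.9%. These matches describe the letters of the windows, and binding was not measured.

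In these cells the pathway was uneven in level. PTGES3 was by far the most abundant member at 251 ± 12.2 TPM in vehicle libraries (SD, n = 3), followed by PTGES2 at 34.4 ± 1.56 and PTGES at 23.3 ± 0.833. PLA2G4A came next at 3.49 ± 0.521 TPM. PTGIS (2.12 ± 0.297), PTGER2 (1.56 ± 0.484) and PTGS2 (1.22 ± 0.0777) followed, and neighbours among these 3 overlapped between libraries. PTGER4 was at 0.33 ± 0.166 TPM, and HPGD and PTGS1 were at 0.123 ± 0.138 and 0.02 ± 0.02. After frankincense the order of the first 8 members was the same. Of the 10 members, 8 passed the low-count filter and PTGS1 and HPGD did not.

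**Figure D1:**
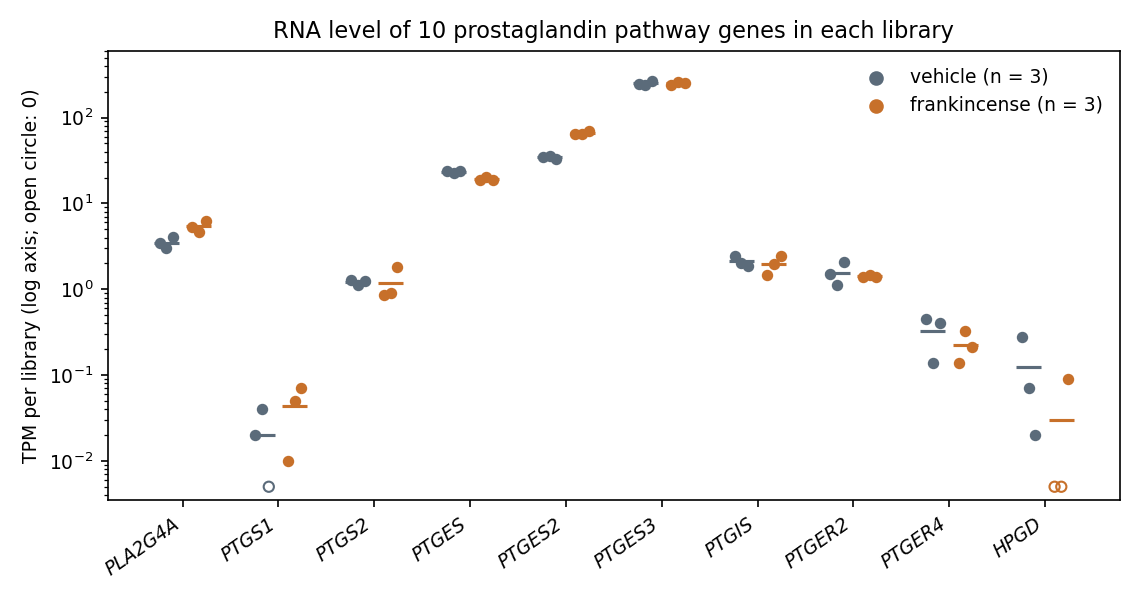
TPM of each member in each library on a log axis, with vehicle libraries in grey, frankincense libraries in orange, a line at each group mean and open circles for values of 0. PTGES3 lies near 251 TPM in both groups, PTGES2 separates from 34.4 to 66.1 TPM, and PTGS1 and HPGD lie at or below 0.28 TPM in every library.

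Of the 8 tested members, 6 (75.0%) were called at an adjusted p under 0.05, 2 higher and 4 lower after frankincense; of all 16719 tested genes, 62.9% were called, 31.9% higher and 31.0% lower. The share of members called was thus not far from that of all genes. Their median log2 fold change was -0.37, against -0.0016 over all tested genes. PTGES2 and PLA2G4A rose, and PTGES, PTGES3, PTGIS and PTGS2 fell. On normalized CPM the groups of 5 members did not overlap, 2 higher and 3 lower, and the same held for 67.5% of all tested genes (34.0% higher, 33.5% lower). On log2(TPM + 1), a scale that raised the median change of all tested genes by 0.20 and called 43.8% of them higher and 14.8% lower, 3 members were called: PTGES2 and PLA2G4A higher and PTGES lower. PTGES2 and PTGES kept their calls under all 19 alternative settings tried.

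**Figure D2:**
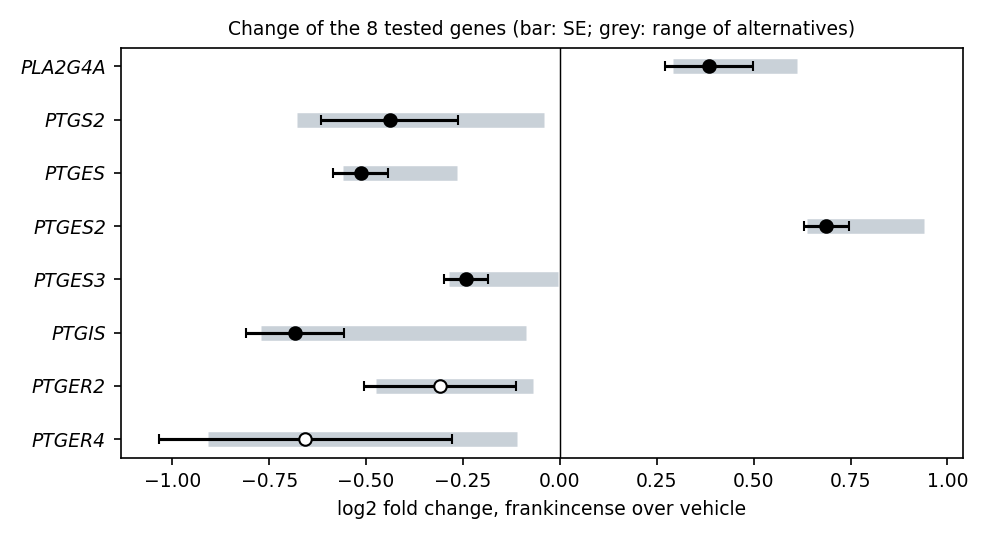
Log2 fold change of the 8 tested members with its standard error (black bars), filled points for called and open points for uncalled genes, and grey bands spanning the 19 alternative settings (18 for PTGER4). PTGES2 and PLA2G4A lie above 0 and the other 6 below, and the bands of PTGES3 and PTGS2 reach -0.0044 and -0.042.

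Phospholipase A2-alpha RNA rose. PLA2G4A (ENSG00000116711, GRCh38 chromosome 1, 186828953 to 186988981) measured 3.45, 2.99 and 4.03 TPM in vehicle and 5.32, 4.67 and 6.17 TPM in frankincense replicates 1, 2 and 3. Every treated library lay above every vehicle library. On the count scale the log2 fold change was 0.38 ± 0.113 (SE), 1.31-fold, with an adjusted p of 0.00817 in edgeR's quasi-likelihood test. The call was lost without vehicle replicate 2, the lowest library (log2 change of 0.29, adjusted p = 0.0577 in edgeR). On chromosome 1 the gene lies 148526 bases from PTGS2, whose transcript runs the other way.

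Cyclooxygenase RNA was almost all PTGS2, the inducible form, and PTGS1, the constitutive form, was at the limit of detection. PTGS1 (ENSG00000095303, chromosome 9, 122370530 to 122395703) had 2, 3 and 0 counts in the vehicle and 1, 2 and 4 counts in the frankincense libraries. PTGS2 (ENSG00000073756, chromosome 1, 186671791 to 186680427) had 95, 111 and 114 counts in vehicle and 70, 62 and 102 in frankincense libraries. PTGS2 therefore made up 96.2% to 100% of cyclooxygenase counts in each library, with Wilson 95% intervals, for counting error only, reaching down to 89.3%. A change of PTGS1 was not detectable at this depth.

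PTGS2 fell on the count scale, by 0.44 ± 0.177 on the log2 scale (edgeR adjusted p = 0.0428), but its groups overlapped. Normalized CPM was 4.29, 4.14 and 4.45 in vehicle, 2.74 and 2.58 in frankincense replicates 1 and 2, and 4.18 in frankincense replicate 3. Frankincense replicate 3, the library that stood apart, thus lay within the vehicle range, and without it the log2 change was -0.68 (adjusted p = 0.0011 in edgeR). When any other single library was left out the call was lost (edgeR adjusted p of 0.0708 to 0.181), as it was with DESeq2 (adjusted p = 0.137) and with library size scaling (edgeR adjusted p = 0.0959). TPM was 1.28, 1.13 and 1.24 in vehicle and 0.86, 0.90 and 1.82 in treated libraries, so that on log2(TPM + 1) the change was -0.042 (limma adjusted p = 0.838). RSEM gives each gene a length that depends on which of its transcripts carry the reads. For PTGS2 it was 4195 to 4510 bases in vehicle and 4510, 4109 and 3613 bases in frankincense replicates 1, 2 and 3. The groups overlapped in length (exact two-sided permutation p = 0.4; the smallest p that 3 against 3 libraries allows is 0.1).

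By distance between centred log2 CPM over the 6 libraries, the 3 tested genes nearest to PTGS2 were MANEA (0.128), an endomannosidase of the Golgi, the long noncoding RNA HELLPAR (0.143) and AC009090.6 (0.202). MANEA measured 14.8, 15.3 and 15.7 CPM in vehicle and 10.1, 9.53 and 14.0 in treated libraries, again with frankincense replicate 3 nearest to vehicle. With 6 libraries in 2 groups, this likeness describes mainly the group difference and that library.

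The 3 genes of terminal prostaglandin E2 synthesis moved in different directions. PTGES2 (ENSG00000148334, chromosome 9, 128120693 to 128128462) encodes a Golgi-associated synthase known to be expressed constitutively. It measured 34.40, 35.96 and 32.85 TPM in vehicle and 64.16, 65.15 and 68.97 TPM in frankincense libraries, with no overlap. Its log2 fold change was 0.69 ± 0.0585, 1.61-fold, with an adjusted p of 1.2e-07 in edgeR. On the log2(TPM + 1) scale it was 0.92, of which 0.20 is the shift of the median gene.

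PTGES (ENSG00000148344, chromosome 9, 129738331 to 129753047) encodes microsomal prostaglandin E synthase-1, the inducible enzyme that is known to couple with PTGS2. It measured 23.68, 22.33 and 23.85 TPM in vehicle and 18.68, 20.13 and 18.79 TPM in treated libraries, again with no overlap. It fell by 0.51 ± 0.07 on the log2 scale, 1.43-fold (edgeR adjusted p = 1.6e-05), and by 0.27 on log2(TPM + 1) (limma adjusted p = 0.0099).

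The ratio of PTGES2 to PTGES within a library does not depend on how libraries are scaled. It was 1.45, 1.61 and 1.38 in vehicle and 3.43, 3.24 and 3.67 in frankincense libraries, from 1.48 ± 0.118 to 3.45 ± 0.215 (SD, n = 3; exact two-sided permutation p = 0.1, the smallest possible). The groups lay far apart relative to their spread. The ratio was formed after these values were seen, from a gene called higher and a gene called lower. Its separation follows from those calls and adds no further support to them. The log2 difference of the ratio was 1.22, 1.21 from counts in place of TPM, and 1.17 to 1.28 when single libraries were left out.

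PTGES3 (ENSG00000110958, chromosome 12, 56663341 to 56688408) encodes cytosolic prostaglandin E synthase, better known as p23, a cochaperone of HSP90. It held 81.3% ± 0.945 of the summed TPM of the 3 E synthase genes in vehicle and 74.6% ± 0.404 after frankincense (SD, n = 3), while PTGES2 went from 11.2% ± 0.907 to 19.7% ± 0.586. Its CPM was 342, 342 and 366 in vehicle and 294, 308 and 285 in treated libraries, a log2 change of -0.24 ± 0.0574 (edgeR adjusted p = 0.00199). Its TPM was 247.00, 242.13 and 265.33 against 240.20, 256.91 and 254.77, which overlapped, with a change of -0.0044 on log2(TPM + 1) (limma adjusted p = 0.953). With TPM rescaled without mitochondrial genes the change was -0.19 and was called (limma adjusted p = 0.0151). The call on PTGES3 thus depended on the scaling.

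**Figure D3:**
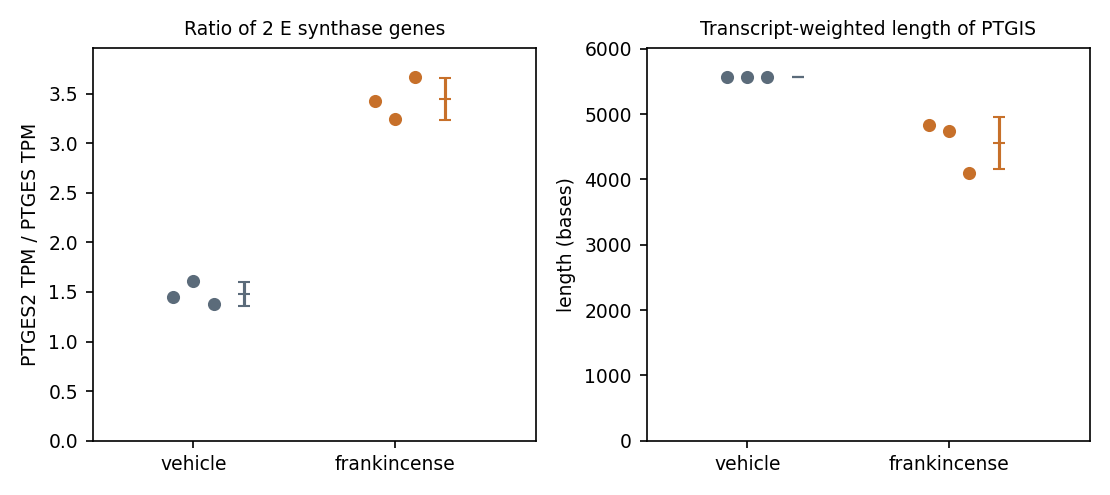
Left, PTGES2 TPM divided by PTGES TPM in each library; right, the transcript-weighted length of PTGIS in bases; points are libraries, and bars to their right give the mean and SD of 3. The ratio lies at 1.38 to 1.61 in vehicle and 3.24 to 3.67 in frankincense libraries, and the PTGIS length at 5570 bases in vehicle and 4093 to 4834 in frankincense libraries.

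Just upstream of PTGES2 an antisense gene runs the other way and moved in the opposite direction. PTGES2-AS1 (ENSG00000232850, chromosome 9, 128128529 to 128130628, plus strand) was named after its values were seen. It had 39, 49 and 27 counts in vehicle and 24, 15 and 17 in treated libraries, a log2 change of -1.03 ± 0.288 (edgeR adjusted p = 0.00621). Its annotated bounds do not overlap those of PTGES2. They do cover part of the PTGES2 window shown above, including the antioxidant response element match. PACERR, the antisense gene upstream of PTGS2, had 22 counts over the vehicle and 29 over the frankincense libraries and was not tested. Its bounds (chromosome 1, 186680622 to 186681446) cover part of the PTGS2 window, including the NF-kappaB match.

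Prostacyclin synthase RNA fell in counts, and its transcript-weighted length was shorter in treated libraries. PTGIS (ENSG00000124212, chromosome 20, 49503874 to 49568146) had 245, 251 and 216 counts in vehicle and 130, 156 and 155 in treated libraries, with no overlap. It fell by 0.68 ± 0.126 on the log2 scale, 1.61-fold (edgeR adjusted p = 2.7e-04). Its transcript-weighted length was 5570 bases in all vehicle libraries and 4834, 4743 and 4093 bases in frankincense replicates 1, 2 and 3 (exact two-sided permutation p = 0.1). Of the 10 members, 1, PTGIS, had length groups that did not overlap, as did 16.9% of all tested genes (10.2% shorter after frankincense), so such a separation is not rare in these libraries. GENCODE 29 lists 2 of its transcripts, the coding PTGIS-201 of 5579 bases and the noncoding processed transcript PTGIS-202 of 1343 bases. Counts for each transcript were not examined, and the reads behind the shorter length were not worked out. At a given TPM a transcript of 1343 bases gives fewer reads than one of 5579 bases. The shorter length can therefore rest on few of the counts in each treated library. TPM, which divides by a length of this kind, was 2.45, 2.02 and 1.88 against 1.48, 1.95 and 2.42 and overlapped, with a change of -0.087 on log2(TPM + 1) (limma adjusted p = 0.614). The fall was lost on all 3 TPM scales tried, where the shorter length (0.818 times vehicle) and the upward shift of the median gene (0.20 on log2(TPM + 1)) both enter. Their shares in the lost fall were not tested.

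Neither prostaglandin E2 receptor was called. PTGER2, the EP2 receptor (ENSG00000125384, chromosome 14, 52314305 to 52328606), measured 1.49, 1.12 and 2.08 TPM in vehicle and 1.37, 1.48 and 1.40 in treated libraries, a log2 change of -0.31 ± 0.195 (edgeR adjusted p = 0.183). In TPM the treated values lay within the vehicle range. In normalized CPM frankincense replicate 3 (2.13) lay just under the lowest vehicle library (2.20), and the groups overlapped. PTGER4, the EP4 receptor (ENSG00000171522, chromosome 5, 40679498 to 40693735), had 14, 10 and 19 counts in vehicle and 8, 8 and 11 in treated libraries, which overlapped, with a log2 change of -0.66 ± 0.378 (edgeR adjusted p = 0.145). At 8 to 19 counts a library a change of moderate size was not detectable. The gene's bounds overlap those of TTC33 on the opposite strand, which had 1425 and 1671 counts per group, and strand is not known to be kept, so reads of the pair cannot be told apart where they overlap.

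HPGD, which inactivates prostaglandin E2 (ENSG00000164120, chromosome 4, 174490177 to 174523154), was barely present. It had 4, 3 and 1 counts in vehicle and 0, 0 and 2 counts in frankincense libraries. It did not pass the filter, and no change was detectable at this depth. In bulk RNA, fewer cells that express a gene and less of its RNA per cell cannot be told apart.

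Of 142 other pathway genes in 9 lists, 109 were tested and 77 (70.6%) called, 27 higher and 50 lower, beside 31.9% and 31.0% of all tested genes. On log2(TPM + 1) the split was 37 higher and 26 lower of 109, on a scale where 43.8% of all tested genes were higher and 14.8% lower. Lists were drawn up with earlier results of these data known, and were read by counts and medians alone, with no set test. The counts of each list below stand beside these same shares of all tested genes: 31.9% higher and 31.0% lower on counts, 43.8% and 14.8% on log2(TPM + 1). No list was tested against them, and several hold few tested genes.

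**Figure D4:**
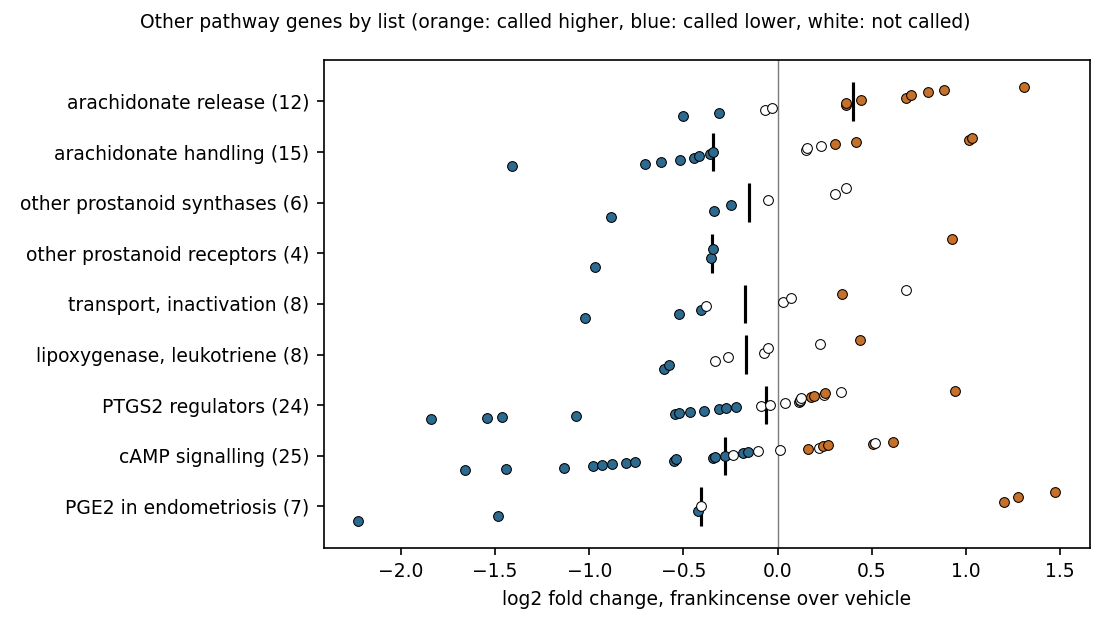
Log2 fold change of each tested pathway gene by list, with the number tested in parentheses and a black line at each list's median; orange points were called higher, blue points lower and white points not called. Genes of arachidonate release centre on 0.40 and lie mostly above 0, while the medians of all other lists lie below 0. The lowest are those of the endometriosis list (-0.41), the 4 prostanoid receptors (-0.35), arachidonate handling (-0.34) and cAMP signalling (-0.28).

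Phospholipases and lipases that release arachidonate had the most rises of any list on counts: of 12 tested genes, 8 rose and 2 fell (8 and 0 in TPM), and the median log2 change was 0.40. MGLL, monoacylglycerol lipase, rose from 4.78 ± 0.204 to 14.2 ± 0.439 TPM (log2 change of 1.31 ± 0.067). ABHD6, a further monoacylglycerol lipase, rose by 0.88 ± 0.102, and PLA2G4C, the gamma form of the cytosolic phospholipase, by 0.80 ± 0.0935. PLA2G6, a calcium-independent phospholipase, fell by 0.50 ± 0.118, and the lysosomal PLA2G15 by 0.31 ± 0.0728, both called on counts and not on log2(TPM + 1). Of the secreted forms, PLA2G12A rose by 0.36 ± 0.0869, while PLA2G2A, PLA2G5 and PLA2G10 had 0 counts in all libraries (all 4 named after their values were seen).

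Genes that make arachidonate or hold it in lipids split, with 4 higher and 8 lower of 15 (6 and 4 on the TPM scale) and a median of -0.34. FADS1, the delta-5 desaturase that forms arachidonate, rose from 38.3 ± 3.14 to 92.1 ± 14.8 TPM (log2 change of 1.03 ± 0.077). ACSL1 and ACSL4, acyl-CoA synthetases of which ACSL4 prefers arachidonate, rose by 1.02 ± 0.0813 and 0.42 ± 0.0549. The lysophospholipid acyltransferase LPCAT4 fell by 0.62 ± 0.058. ANXA1, annexin A1, known as an inhibitor of phospholipase A2, fell from 871 ± 18.8 to 633 ± 8.47 TPM (-0.71 ± 0.062). S100A10, which forms a complex with annexin A2 and binds PLA2G4A, fell from 1120 ± 3.15 to 498 ± 67 TPM (-1.41 ± 0.121).

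Among other prostanoid synthases 0 were higher and 3 lower of 6. AKR1C3, a prostaglandin F synthase, fell by 0.88 ± 0.135, CBR1, a carbonyl reductase of prostaglandin E2, by 0.34 ± 0.0604, and AKR1B1, another F synthase, by 0.25 ± 0.0517. The last 2 were not called on log2(TPM + 1) (limma adjusted p of 0.127 and 0.784). AKR1C genes are near-identical copies, so their values are uncertain. Of the other receptors 1 was higher and 3 lower of 4. PTGIR, the prostacyclin receptor, fell from 4.92 ± 0.505 to 3.13 ± 0.882 TPM (log2 change of -0.97 ± 0.126). PTGFR, the prostaglandin F receptor, fell by 0.34 ± 0.089 and was not called on the TPM scales. TBXA2R, the thromboxane receptor, fell by 0.35 ± 0.13, a call lost in 10 of 19 alternatives. PTGDR2, named after its values were seen, rose by 0.93 ± 0.384 on 20 and 38 counts per group, a call lost in 11 of 18 alternatives.

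Of 8 transport and inactivation genes 1 was higher and 3 lower (2 and 1 on the TPM scale). ABCC4, an exporter of prostaglandins, rose by 0.34 ± 0.0681. CBR3, a carbonyl reductase, fell from 45.5 ± 0.554 to 26.4 ± 3.12 TPM (log2 change of -1.02 ± 0.0956). The prostaglandin reductases PTGR3 and PTGR1 fell by 0.52 ± 0.063 and 0.40 ± 0.0572, and neither was called on log2(TPM + 1).

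RNA for the first enzyme of the leukotriene branch was close to 0. ALOX5, 5-lipoxygenase, had 2 counts over the vehicle and 0 over the frankincense libraries, and its partner ALOX5AP had 7 and 12. LTC4S, leukotriene C4 synthase, had 4 and 4, and none of these 3 passed the filter. LTA4H, which makes leukotriene B4, was at 45.4 ± 1.34 and 48.2 ± 3.63 TPM (log2 change of -0.048 ± 0.0496, edgeR adjusted p = 0.419). Of 8 tested genes of the lipoxygenase list 1 was higher and 2 lower, both lower ones being microsomal glutathione transferases: MGST2 at -0.60 ± 0.0861 and MGST3 at -0.58 ± 0.055. EPHX2, soluble epoxide hydrolase, rose by 0.44 ± 0.17, a call lost in 9 of 19 alternatives.

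Factors known to act on PTGS2 transcription or mRNA numbered 24 tested, of which 4 rose and 11 fell on counts (median log2 change -0.062) and 11 rose and 8 fell in TPM. JUNB and FOS, subunits of AP-1, fell from 121 ± 14.8 to 40.0 ± 1.76 TPM (log2 change of -1.84 ± 0.0982) and from 158 ± 34.3 to 68.8 ± 1.39 TPM (-1.47 ± 0.177). CEBPD, which binds C/EBP sites, fell by 1.07 ± 0.185. RELB, an NF-kappaB subunit, rose by 0.94 ± 0.0774. FOSL1, a further AP-1 subunit, rose by 0.25 ± 0.0909, a call lost in 6 of 19 alternatives. RBM3, an RNA-binding protein, rose by 0.20 ± 0.0617, a call lost without vehicle replicate 1 (0.19, edgeR adjusted p = 0.0513) or 2 (0.17, adjusted p = 0.0712).

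Genes of cAMP signalling, the route of EP2 and EP4, numbered 25 tested, of which 5 rose and 15 fell on counts (median log2 change -0.28) and 6 rose and 7 fell in TPM. PDE4B, a phosphodiesterase that degrades cAMP, fell from 3.32 ± 0.534 to 1.60 ± 0.272 TPM (log2 change of -1.44 ± 0.139). RAPGEF4, the cAMP sensor EPAC2, fell by 1.66 ± 0.236 on counts and was not called on the TPM scales. ARRB1, beta-arrestin 1, fell by 1.14 ± 0.109 (0.42 on log2(TPM + 1)). ADCY7, an adenylate cyclase, rose by 0.61 ± 0.0923, the nuclear receptor NR4A1 by 0.51 ± 0.0851, and the CREB coactivator CRTC3 by 0.27 ± 0.0521.

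Of 13 genes tied to prostaglandin E2 in endometriosis, 7 were tested, 3 higher and 3 lower. VEGFA, the angiogenic growth factor, rose from 71.6 ± 2.60 to 230 ± 22.4 TPM (log2 change of 1.47 ± 0.0611). STAR, which carries cholesterol into mitochondria for steroid synthesis, fell from 2.30 ± 0.282 to 0.717 ± 0.393 TPM (-2.23 ± 0.186). DUSP2, a MAP kinase phosphatase, rose by 1.28 ± 0.322, and NR2F2, COUP-TFII, fell by 0.42 ± 0.0515. Aromatase, CYP19A1, named after its values were seen, had 2 and 0 counts per group. ESR1 and ESR2, the oestrogen receptors, were named after their values were seen: on 40 and 91 counts ESR1 rose by 1.20 ± 0.31, and on 43 and 15 counts ESR2 fell by 1.48 ± 0.376, the latter not called by DESeq2 (adjusted p = 0.0581) or on the TPM scales.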

How the data were processed

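RNA of 6 libraries of 12Z cells, 3 per group, was sequenced after a TruSeq RNA preparation. The authors deposited 1 gene table per library with RSEM expected counts, TPM, FPKM and transcript-weighted lengths, per the file headers. STAR and RSEM 1.3.1 on GRCh38 are named in the submitters' processing notes, while for the STAR version, annotation, strand setting and filters on reads the sources used here give nothing. FPKM values deposited by the authors were not tested.

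After rounding to integers, expected counts went into the quasi-likelihood test of edgeR 4.0.16 (R 4.3.3): filterByExpr, TMM scaling, robust fit, Benjamini-Hochberg adjustment over 16719 genes, threshold 0.05. Standard errors are the log2 change divided by the square root of F. TPM, as deposited, was tested as log2(TPM + 1) with limma 3.58.1. TPM has a fixed sum in each library, so a large gain elsewhere lowers every other gene, and a large loss elsewhere raises every other gene. In these libraries the median tested gene rose by 0.20 on log2(TPM + 1). DESeq2 1.42.0, other scalings, filters and pseudocounts, removal of mitochondrial genes, a replicate block and leaving out each library made 19 alternatives. Totals were 22615150 to 27615196 counts per library, and at the lowest members counting error dominates.

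The members and lists were chosen with earlier results of these data known. The text names all 10 members, ALOX5, ALOX5AP, LTA4H and LTC4S, from each list up to 3 genes called in each direction with the largest change and at least 1 TPM in the higher group, and the 3 genes nearest to PTGS2; other genes were named after their values were seen. Symbols came from the reference name table and GENCODE 29, which also gave coordinates (GRCh38). Promoter windows are from RefSeq (GRCh38.p14), where 9 of 10 members matched. Exact tests used scipy 1.17.1.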

Additional observations from a re-analysis of the deposited data

How the results depend on the processing

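PTGES2, PTGES and their ratio kept direction under every alternative tried, and PTGES2 and PTGES kept their calls. On log2(TPM + 1) and on log2(TPM + 0.1), 3 members were called in place of 6. With TPM rescaled without mitochondrial genes 4 were called, PTGES3 among them, and 57.8% of all calls were higher. Of the calls lost on log2(TPM + 1), PTGES3 alone returned with that rescaling. PTGS2 (limma adjusted p = 0.465) and PTGIS (limma adjusted p = 0.224) stayed uncalled. Leaving out single libraries gave 4 to 6 called members, 69 to 80 called pathway genes and 9377 to 11031 called genes in all. Over all tested genes, 74.8% of calls were higher on log2(TPM + 1) against 50.7% on counts. LTA4H, never called, changed sign to 0.0284 with library size scaling, 0.0841 on log2(TPM + 1) and 0.0857 on log2(TPM + 0.1), and the cause was not tested. AC009090.6 was called without frankincense replicate 3 (-0.51, edgeR adjusted p = 0.00581). The ratio and its alternatives were chosen after seeing the data. Same-numbered libraries correlated at 0.05, 0.101 and 0.035 in their deviations from group means, each library best with its own number. The labels share only a number, and the main test left that number out. These small correlations do not settle whether the libraries were paired. With a replicate block 6 members, 81 pathway genes and 10591 genes in all were called, and EPHX2 (edgeR adjusted p = 0.0506) and PTGDR2 (0.0683) were not. Depth limits PTGS1, HPGD and PTGER4, each under 20 counts per library.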
